A study of Mus musculus with 3 samples.

Results

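The genes described here are olfactory receptor genes of mouse chromosome 9, chosen by name: all those numbered from Olfr829 to Olfr985 whose symbol has no suffix. A pseudogene in that range, Olfr911-ps1, was left out by this rule and was not detected in any group. On the bead array used, 100 of 17349 named genes met this rule, each with 1 probe, and the RefSeq gene table placed all 100 on chromosome 9. RNA came from C57BL/6 mice aged 6 to 8 weeks and was taken from their sinonasal mucosa, which lines the nasal cavity and sinuses. The groups were mice lacking CC10 that had eosinophilic chronic rhinosinusitis of allergic type (ECRS_KO), wild-type mice with the same disease (ECRS_WT) and wild-type mice without it (Control_WT). CC10, the product of Scgb1a1, is a protein that club cells of the airway secrete. Each group was represented by a single pool, the RNA of 5 mice on 1 array, so no value has a replicate error and no difference has a test. The labels do not say how the disease arose or how the knockout was made.

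Olfactory receptors are G protein-coupled receptors that bind odorants on the cilia of olfactory sensory neurons. Each mature neuron transcribes a single receptor gene from a single allele, so the transcript of any one receptor comes from a small share of the neurons in the olfactory epithelium. The proteins Rtp1 and Rtp2 help carry the receptors to the cell surface, and a cascade of the G protein subunit Gnal, the adenylyl cyclase Adcy3 and a cyclic nucleotide-gated channel turns binding into an electrical signal. Class II receptors, to which the chromosome 9 genes belong, are the larger class in mammals, and class I receptors lie in a cluster on chromosome 7.

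The genes fall into 2 blocks in RefSeq gene order on chromosome 9. The first block, Olfr829 to Olfr873, held 28 of the genes, and the second, Olfr874 to Olfr985, held 72, with 308 annotated genes between the blocks. By the names listed as synonyms in RefSeq, the 100 genes belonged to 25 families of similar sequence. The largest was family MOR171 with 25 genes, followed by MOR162 with 10, MOR165 with 8 and MOR224 with 7.

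The sequences below are the RefSeq windows (build GRCm38.p6) from 250 bases before the annotated gene start to 50 bases after it. They are shown for the 3 genes with the highest difference between the pools labelled ECRS_KO and ECRS_WT among those detected in both, and for Olfr970, whose coding start is nearly that of its neighbour Olfr969. All 4 lie on the plus strand, at chr9:39795127-39795426 for Olfr969, chr9:37772387-37772686 for Olfr875, chr9:38268265-38268564 for Olfr895 and chr9:39819391-39819690 for Olfr970. Capitals mark the coding bases from the start codon, where the annotated gene start is the start codon.
Olfr969: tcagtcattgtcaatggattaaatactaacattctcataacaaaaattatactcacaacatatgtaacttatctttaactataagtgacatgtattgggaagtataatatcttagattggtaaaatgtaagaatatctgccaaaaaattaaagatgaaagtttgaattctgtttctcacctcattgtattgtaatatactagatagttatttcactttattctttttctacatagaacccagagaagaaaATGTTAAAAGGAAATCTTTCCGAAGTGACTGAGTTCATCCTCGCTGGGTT
Olfr970: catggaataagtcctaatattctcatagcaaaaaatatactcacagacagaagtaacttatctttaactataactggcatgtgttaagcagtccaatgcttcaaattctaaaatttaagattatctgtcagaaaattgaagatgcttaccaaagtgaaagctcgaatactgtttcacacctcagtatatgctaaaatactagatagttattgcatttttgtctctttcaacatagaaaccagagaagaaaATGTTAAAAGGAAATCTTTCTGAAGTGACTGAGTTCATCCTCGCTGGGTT
Olfr895: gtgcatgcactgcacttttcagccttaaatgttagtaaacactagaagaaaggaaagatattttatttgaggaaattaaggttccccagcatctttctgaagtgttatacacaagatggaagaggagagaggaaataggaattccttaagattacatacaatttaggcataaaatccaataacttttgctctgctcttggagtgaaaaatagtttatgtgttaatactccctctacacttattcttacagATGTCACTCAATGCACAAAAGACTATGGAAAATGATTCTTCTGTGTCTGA
Olfr875: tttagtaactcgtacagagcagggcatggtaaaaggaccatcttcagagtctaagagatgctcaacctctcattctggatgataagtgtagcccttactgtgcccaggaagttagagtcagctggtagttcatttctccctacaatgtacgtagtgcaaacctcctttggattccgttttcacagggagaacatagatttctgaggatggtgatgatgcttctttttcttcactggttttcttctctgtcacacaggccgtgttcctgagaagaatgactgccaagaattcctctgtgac
Windows of Olfr969 and Olfr970 matched at 49 of the 50 coding bases shown, the exception being C21T (Olfr969 base, position counted from 1 at the start codon, Olfr970 base), and at 125 of the 250 bases before them, compared position by position. Olfr895 and Olfr969 matched at 10 of 50 coding bases. In the windows of 58 genes the annotated gene start was a start codon. Among the 1653 pairs of these, 8 matched at 45 or more of the 50 bases, and Olfr969 with Olfr970 was the one such pair with a gene detected on any array. Of the 30 genes detected on any array, 17 were among the 58 compared. The others, Olfr875 among them, were not checked for close pairs. Probe sequences were not used here, so signals of Olfr969 and Olfr970 may be shared between their transcripts and are uncertain as to gene.

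The windows were rich in A and T, with a median of 66.0% against 65.0% over all Olfr windows and 47.3% over all windows. In 58 of the 88 windows (65.9%) the annotated start was a start codon, against 72.6% of 944 Olfr windows and 5.83% of all 32851, so for these genes the annotation gives no untranslated bases before the coding start, and the window is not known to be a promoter. The core TAATTA, a homeodomain-type motif searched on both strands, was in 22 of 88 windows, against 18.6% of all Olfr windows and 5.29% of all windows. Of the windows of genes detected on any array 2 of 26 held it, and of those detected on none 20 of 62. The shorter core TAATNN, which includes TAATTA, was in 96.6% of the windows, against 94.5% of all Olfr windows and 57.9% of all windows. The palindromic Olf1/EBF-type motif was in 0 of 88 windows, against 0.53% of all Olfr windows and 0.904% of all windows.

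The targeted gene went against the labels. Scgb1a1 had a signal of 597 in the pool labelled ECRS_KO, 493 in the pool labelled ECRS_WT and 3.32 in the pool labelled Control_WT, where it was not detected. Because of this, groups are called by their labels only, and the pools labelled ECRS_KO and ECRS_WT together the ECRS-labelled pools. The place of its probe relative to the deletion is not known here, and each direction below rests on the labels as given. Mean signals over all probes were 465, 373 and 295 in the pools labelled ECRS_KO, ECRS_WT and Control_WT.

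Most genes of the chromosome 9 group were not detected in sinonasal mucosa. A gene was detected when its detection p-value, the share of negative control probes brighter than its probe, was under 0.01. The detection p-values of 97 of the 100 receptors were whole steps of such a share on all 3 arrays, and the other 3 receptors were not detected. For some other probes the p-value does not follow the signal: Nqo1, chosen after its values were seen, was not detected at a signal of 5344 in the pool labelled ECRS_KO. By this measure 23 of 100 were detected in the pool labelled ECRS_KO, 16 in the pool labelled ECRS_WT and 18 in the pool labelled Control_WT. Of all 17349 genes 48.8%, 47.4% and 45.4% were detected in the pools labelled ECRS_KO, ECRS_WT and Control_WT. In all, 30 genes were detected on some array and 10 on all 3, while 70 were detected on none. The signals of those 70 had medians of -8.91, -9.41 and -7.49 in the pools labelled ECRS_KO, ECRS_WT and Control_WT, and the mean of the negative controls, as inferred from the detection p-values, was -3.88, -2.08 and -2.13 in the same order. Absence of detection here is a limit of the array and does not show that a receptor was not transcribed.

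Detection limits differed between arrays with their brightness. The dimmest detected gene had a signal of 42.2 (Olfr980) in the pool labelled ECRS_KO, 32.2 (Olfr869) in the pool labelled ECRS_WT and 23.1 (Olfr834) in the pool labelled Control_WT. Just outside lay Olfr832 at 38.8 in the pool labelled ECRS_KO, and Olfr834 at 30.8 in the pool labelled ECRS_WT. Levels were therefore compared on the normalized log2 scale, after background correction and quantile normalization of the 3 arrays together.

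**Figure D1:**
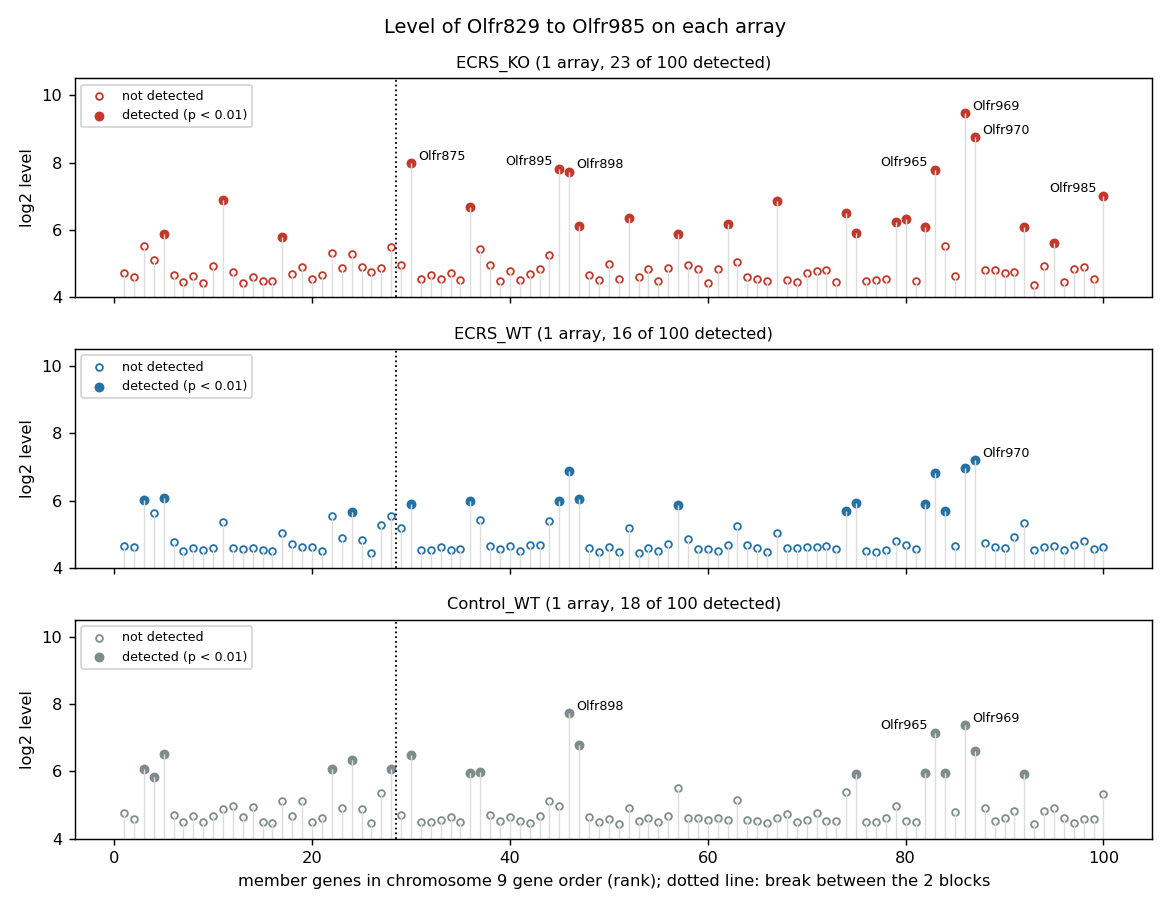
Normalized log2 level of each of the 100 genes (vertical axis) in chromosome 9 gene order (horizontal axis, rank) in the pools labelled ECRS_KO, ECRS_WT and Control_WT, with filled points for detected genes and a dotted line between the 2 blocks. The tallest points in the pool labelled ECRS_KO are Olfr969 and Olfr970 near the end of the second block, and most genes lie near the bottom of the axis on all 3 arrays.

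Receptors of the group were brighter in the pool labelled ECRS_KO than in the pool labelled ECRS_WT. Of the 100 genes 26 were measured here, that is, detected in at least 1 of the 2 pools compared. Of these, 11 were higher by 2-fold or more in the pool labelled ECRS_KO and 0 lower by as much, while of all 8919 measured genes 4.72% were higher and 2.35% lower by 2-fold or more. With limma's own inference of the negative controls the 11 became 1, and with the authors' normalized values 3. The median log2 difference of the 26 was 0.90, or 0.61 with genes detected on 1 array set against the dimmest detected receptor of the other, and the median of all measured genes was -0.04. The median of the 26 was 0.066 under limma's own inference and 0.34 with the authors' values. A gene undetected on both arrays could not enter, which favours genes that are bright on one of them; over all 100 genes the median was 0.05, with 61 positive and 39 negative. In pooled tissue RNA, a difference in the share of receptor neurons and a difference in receptor RNA per neuron cannot be told apart.

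Olfr969, of family MOR171, had a signal of 921 in the pool labelled ECRS_KO, 103 in the pool labelled ECRS_WT and 88.3 in the pool labelled Control_WT. It was 5.69-fold higher in the pool labelled ECRS_KO than in the pool labelled ECRS_WT, rank 3 among the 7762 genes detected on both. Its neighbour Olfr970, of the same MOR171 family, had 558 in the pool labelled ECRS_KO, 126 in the pool labelled ECRS_WT and 44.7 in the pool labelled Control_WT, a 2.94-fold difference between the ECRS-labelled pools. Both genes were detected on all 3 arrays, with the pool labelled ECRS_KO far above the other two.

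Olfr875, of family MOR161 near the start of the second block, had 324 in the pool labelled ECRS_KO, 40.3 in the pool labelled ECRS_WT and 40.1 in the pool labelled Control_WT. It was 4.25-fold higher in the pool labelled ECRS_KO than in the pool labelled ECRS_WT. Olfr895, of family MOR170, had 289 in the pool labelled ECRS_KO, 43.9 in the pool labelled ECRS_WT and 4.58, below detection, in the pool labelled Control_WT. The difference between the ECRS-labelled pools was 3.56-fold, and against the pool labelled Control_WT Olfr895 was at least 3.98-fold higher in the pool labelled ECRS_KO. These 4 genes were the ones past 2-fold among the 13 detected in both ECRS-labelled pools.

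Olfr965 of family MOR171, with 283 in the pool labelled ECRS_KO, 92.7 in the pool labelled ECRS_WT and 72.2 in the pool labelled Control_WT, lay just under 2-fold at 1.94-fold. Olfr898, the next gene with a probe after Olfr895 and of the same MOR170 family, had 271 in the pool labelled ECRS_KO, 96.2 in the pool labelled ECRS_WT and 120 in the pool labelled Control_WT. At 1.80-fold between the ECRS-labelled pools it did not reach 2-fold, and its signal in the pool labelled Control_WT was above that in the pool labelled ECRS_WT. Olfr948 (1.76-fold) and Olfr884 (1.61-fold) were also brighter in the pool labelled ECRS_KO without reaching 2-fold.

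The other 7 of the 11 genes were detected in the pool labelled ECRS_KO and not in the pool labelled ECRS_WT. The count of 11 sets such a gene against the lowest level of any detected probe in the other pool, 5.06 on the log2 scale in the pool labelled ECRS_WT, which is under the level of the dimmest detected receptor there, 5.67. Set against the dimmest detected receptor, a floor chosen after seeing the data, 7 of the 11 remained at 2-fold or more, and the folds written as "at least" for receptors are those against this higher floor. Olfr985, the last gene of the second block, had 161 in the pool labelled ECRS_KO, -8.15 in the pool labelled ECRS_WT and 11.8 in the pool labelled Control_WT, at least 2.54-fold higher in the pool labelled ECRS_KO than in the pool labelled ECRS_WT. Olfr934 had 143 in the pool labelled ECRS_KO, 11.1 in the pool labelled ECRS_WT and -6.52 in the pool labelled Control_WT, at least 2.28-fold higher in the same comparison. Olfr847, the first-block gene among the 11, had 148 in the pool labelled ECRS_KO, 22.0 in the pool labelled ECRS_WT and 2.55 in the pool labelled Control_WT, at least 2.34-fold higher. These 3 genes were not detected in the pools labelled ECRS_WT and Control_WT. The other 4, Olfr910, Olfr959, Olfr958 and Olfr923, were at least 1.61-fold, 1.57-fold, 1.49-fold and 1.42-fold higher, under 2-fold by this floor, with signals of 78.8 to 93.3 in the pool labelled ECRS_KO.

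Not every detected receptor was brighter in the pool labelled ECRS_KO. Among the 13 detected in both ECRS-labelled pools, Olfr835 had signals of 57.2 in the pool labelled ECRS_KO, 48.5 in the pool labelled ECRS_WT and 41.8 in the pool labelled Control_WT, a log2 difference of -0.22 between the ECRS-labelled pools. Olfr952, Olfr916 and Olfr901 differed by -0.02, 0.01 and 0.06 on the log2 scale. Olfr832, Olfr869 and Olfr967 were detected in the pool labelled ECRS_WT and not in the pool labelled ECRS_KO. Their signals were 38.8, 26.8 and 38.1 in the pool labelled ECRS_KO, against 45.5, 32.2 and 33.3 in the pool labelled ECRS_WT, so that Olfr967 had the higher deposited signal in the pool labelled ECRS_KO and a log2 difference of -0.18 after normalization. All of these were dim, with signals between 26.8 and 73.2 in the pool labelled ECRS_KO.

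The remaining detected genes lay near the detection limit. Olfr961 of family MOR224, with signals of 72.3, 40.3 and 26.4 in the pools labelled ECRS_KO, ECRS_WT and Control_WT, differed by 0.20 on the log2 scale between the ECRS-labelled pools. Olfr976, Olfr855 and Olfr980, undetected in the pool labelled ECRS_WT, had signals of 71.0, 51.7 and 42.2 in the pool labelled ECRS_KO, against 21.5, 10.8 and -5.41 in the pool labelled ECRS_WT. Olfr834, Olfr867, Olfr873 and Olfr885 were detected in the pool labelled Control_WT alone, with signals of 23.1 to 28.9 there.

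**Figure D2:**
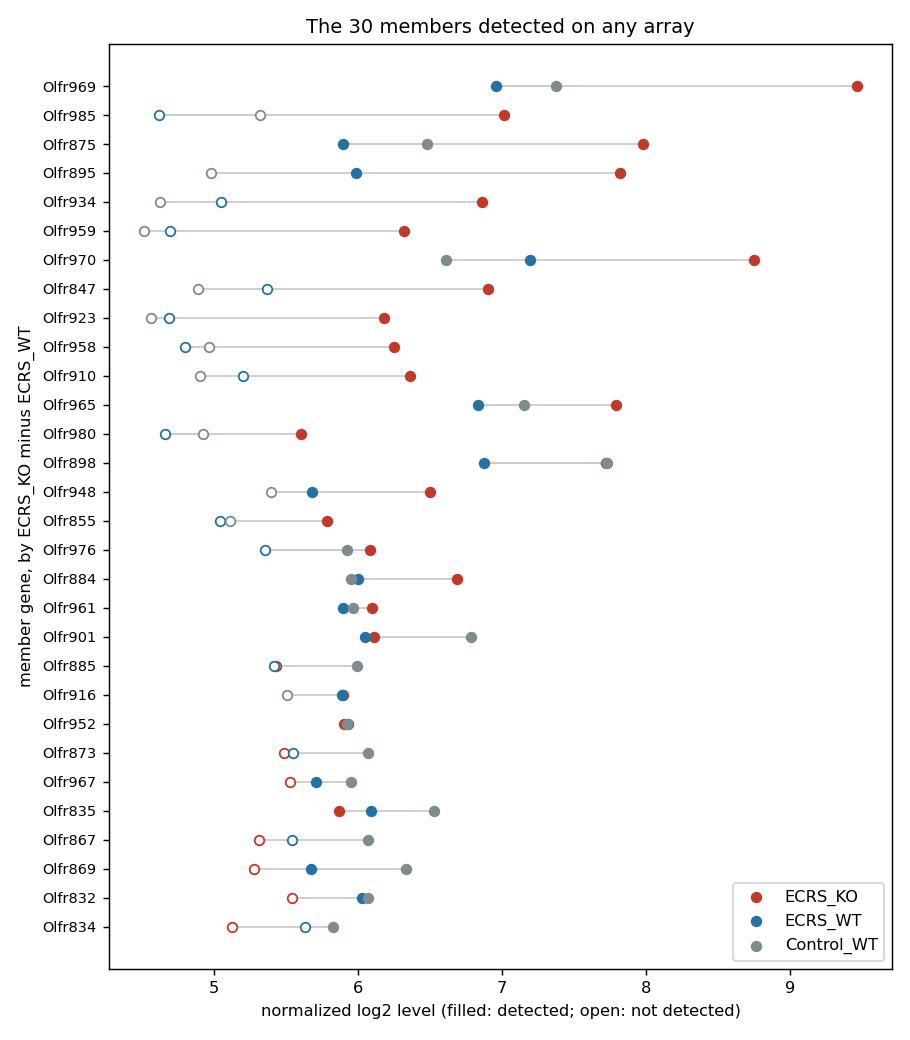
Normalized log2 level (horizontal axis) of the 30 genes detected on any array, ordered from top to bottom by the difference of ECRS_KO minus ECRS_WT, with a point for each array (filled where detected, open where not). From Olfr969 down to Olfr910 the point of the pool labelled ECRS_KO is furthest right; in the bottom rows that of the pool labelled Control_WT is.

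Among the 70 genes detected on no array the log2 difference between the ECRS-labelled pools had a median of 0.02 and ranged from -0.41 to 0.35.

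Position and family were described by counts. In the first block 3 of 28 genes were detected in the pool labelled ECRS_KO, 3 in the pool labelled ECRS_WT and 6 in the pool labelled Control_WT; in the second block these counts were 20, 13 and 12 of 72. Between the ECRS-labelled pools 1 of 5 measured genes of the first block was at least 2-fold higher in the pool labelled ECRS_KO (median log2 difference -0.22) and 10 of 21 of the second (median 0.96). With only 5 measured genes in the first block, no difference between the blocks was tested. The 11 genes came from 7 of the 25 families. In family MOR224, 5 of 7 genes were detected in the pool labelled ECRS_KO, 1 in the pool labelled ECRS_WT and 2 in the pool labelled Control_WT, and 3 of 5 measured genes (Olfr934, Olfr958 and Olfr959) were at least 2-fold higher in the pool labelled ECRS_KO. Against the higher floor Olfr934 alone of these stayed at 2-fold or more. In the larger family MOR171, 3 of 7 measured genes were at least 2-fold higher and 18 of 25 genes were detected on no array. In MOR162, 0 of 2 measured genes reached 2-fold and 7 of 10 genes were detected on none.

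Between the pools labelled ECRS_WT and Control_WT no receptor of the group was called at 2-fold or more under the processing reported. Olfr895, undetected in the pool labelled Control_WT, had a log2 difference of 1.01 by its measured values. It was not called because its fold was counted against the lowest detected level there. Of 21 measured genes 0 were called higher and 0 lower by 2-fold or more in the pool labelled ECRS_WT than in the pool labelled Control_WT, while of all 8766 measured genes 3.76% were higher and 1.4% lower by as much. With so few genes measured and such small shares over all genes, the lack of calls does not set the group apart. The median log2 difference was -0.32, against -0.09 for all measured genes. This value depended on scaling: with each array scaled to the same median in place of quantile normalization it was -0.07, while the median of all measured genes was 0.10. Relative to all measured genes the median of the group was thus -0.23 and -0.18 under the 2 scalings. This relative median was -0.012 with limma's own inference of the negative controls and -0.078 with the authors' normalized values. With no detection filter it was 0.030, so its size and sign depended on the processing.

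Olfr898 was 1.81-fold lower in the pool labelled ECRS_WT than in the pool labelled Control_WT, and Olfr901 and Olfr869 were 1.66-fold and 1.58-fold lower. Olfr875 differed by -0.58 on the log2 scale. Before normalization the signals of Olfr875 were nearly equal, as given above. In the other direction Olfr970 differed by 0.59 on the log2 scale and Olfr884 by 0.05, while Olfr832 differed by -0.05. Olfr895, Olfr916 and Olfr948, detected in the pool labelled ECRS_WT and not in the pool labelled Control_WT, lay near the detection limit, with Olfr895 at least 1.12-fold and Olfr916 at least 1.04-fold higher in the pool labelled ECRS_WT and no bound above 1 for Olfr948. Olfr885, Olfr976 and Olfr867, detected in the pool labelled Control_WT and not in the pool labelled ECRS_WT, were at least 1.25-fold, 1.19-fold and 1.32-fold lower in the pool labelled ECRS_WT.

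The pool labelled ECRS_KO was also set against the pool labelled Control_WT, a comparison in which the labelled genotype and disease both differ and which shares an array with each of those above. Of 30 measured genes 11 were higher and 1 lower by 2-fold or more in the pool labelled ECRS_KO, while of all 9085 measured genes 6.91% were higher and 5.66% lower by as much. The 11 became 1 under limma's own inference, 3 with the authors' normalized values, and 7 each at an offset of 50 and against the dimmest detected receptor. The median was 0.66 (0.15 with genes detected on 1 array set against that receptor), against -0.11 for all measured genes, and became 0.035 under limma's own inference and 0.20 with the authors' values. Olfr970 was 4.41-fold, Olfr969 4.26-fold and Olfr875 2.84-fold higher in the pool labelled ECRS_KO, and Olfr884 was 1.67-fold higher. Olfr847 and Olfr985, undetected in the pool labelled Control_WT, were at least 2.10-fold and 2.28-fold higher in the pool labelled ECRS_KO. Olfr869 was the gene lower by 2-fold or more, and at least 1.66-fold lower against the dimmest detected receptor, with 26.8, below detection, in the pool labelled ECRS_KO, 32.2 in the pool labelled ECRS_WT and 35.8 in the pool labelled Control_WT. That call was lost under each other scaling, background, offset or floor tried except the mean of probes and the controls read from stepped p-values. Olfr901, Olfr835, Olfr952 and Olfr898 had log2 differences of -0.67, -0.66, -0.02 and -0.01 in this comparison, and Olfr867 and Olfr834, undetected in the pool labelled ECRS_KO, were at least 1.38-fold and 1.17-fold lower there.

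**Figure D3:**
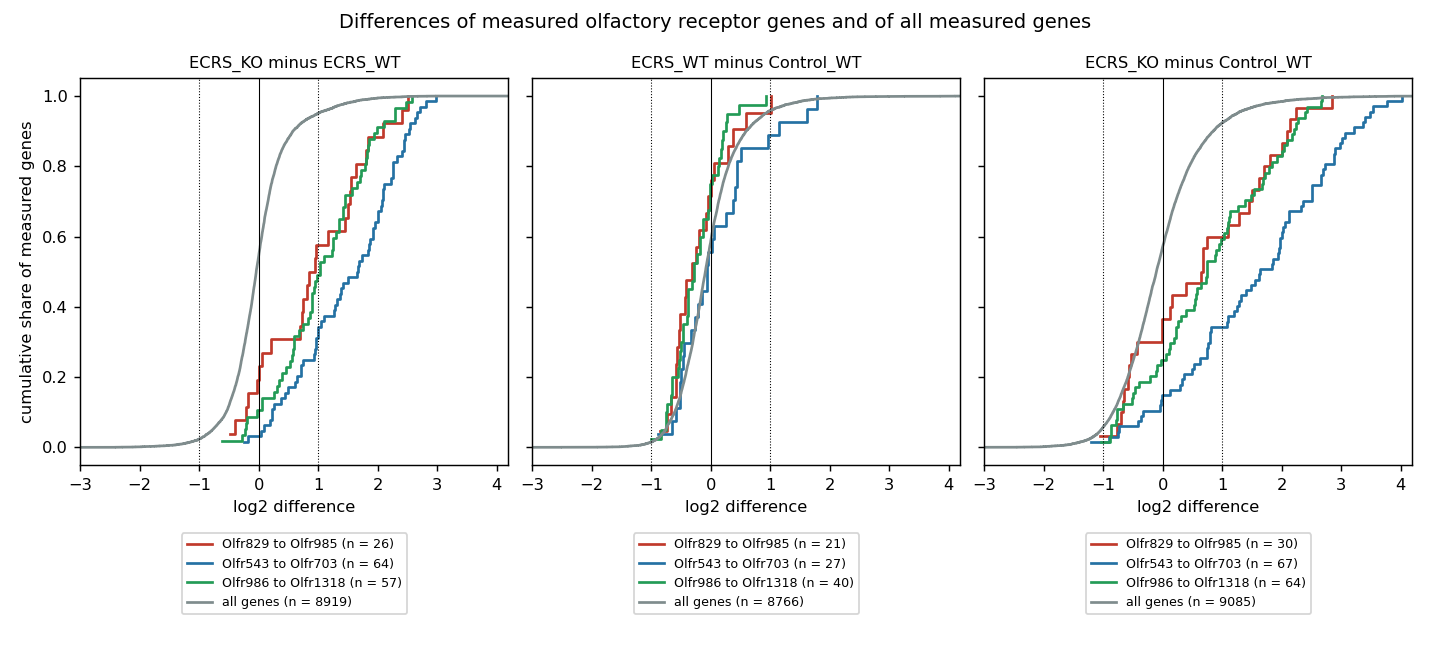
Cumulative share of measured genes (vertical axis) against the log2 difference (horizontal axis, cut at -3 and 4.2) for Olfr829 to Olfr985, Olfr543 to Olfr703, Olfr986 to Olfr1318 and all genes, in a panel for each comparison, with dotted lines at 2-fold. For ECRS_KO minus ECRS_WT the 3 receptor curves lie right of that of all genes, Olfr543 to Olfr703 furthest; for ECRS_KO minus Control_WT they meet it at the low end, and for ECRS_WT minus Control_WT they cross it.

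Receptors of other clusters were set beside the chromosome 9 group. Between the ECRS-labelled pools, 27 of 57 measured genes from Olfr986 to Olfr1318, mainly of the large chromosome 2 cluster, were 2-fold higher or more in the pool labelled ECRS_KO (median log2 difference 1.03). From Olfr543 to Olfr703, mainly class I genes of chromosome 7, 40 of 64 were at least 2-fold higher, with a median of 1.66. Of all 263 other measured Olfr genes 111 (42.2%) were at least 2-fold higher, against 42.3% of the chromosome 9 group, and 0 were at least 2-fold lower. In the pool labelled ECRS_KO 23.0% of the chromosome 9 genes were detected, against 55.7% of Olfr543 to Olfr703, 24.3% of Olfr986 to Olfr1318 and 28.5% of all other Olfr genes. In the pool labelled Control_WT these shares were 18.0%, 18.3%, 16.1% and 17.1%. No difference between clusters was tested, since genes on 1 array are not replicates.

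Genes of the neurons that use these receptors were also brighter in the pool labelled ECRS_KO. Of 14 measured markers of mature olfactory sensory neurons 12 were at least 2-fold higher than in the pool labelled ECRS_WT and 0 lower by as much. Their median log2 difference was 1.49. Rtp2 had 1650 in the pool labelled ECRS_KO, 221 in the pool labelled ECRS_WT and -4.26, below detection, in the pool labelled Control_WT, and Rtp1 had 895 in the pool labelled ECRS_KO, 120 in the pool labelled ECRS_WT and 7.07, again below detection, in the pool labelled Control_WT. Between the ECRS-labelled pools Rtp2 was 5.30-fold and Rtp1 4.89-fold higher, and the receptor accessory protein gene Reep1 2.72-fold. Omp, the olfactory marker protein of mature neurons, had 15646 in the pool labelled ECRS_KO, 12381 in the pool labelled ECRS_WT and 10088 in the pool labelled Control_WT, a 1.11-fold difference between the ECRS-labelled pools. This defining olfactory marker was thus present on all 3 arrays.

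The gene lists overlap, so their counts are not separate results. Gnal, Adcy3, Cnga2, Cnga4, Cngb1, Ano2 and Gng13 are in both the cascade list and the mature neuron list. Rtp1 and Rtp2 are in both the mature neuron and receptor trafficking lists, and Lhx2 and Ebf2 in both the regulator and immature neuron lists. In the signalling cascade 8 of 12 measured genes were at least 2-fold higher in the pool labelled ECRS_KO than in the pool labelled ECRS_WT, led by Gnal (4.54-fold) and the channel subunits Cnga2 (3.96-fold) and Cnga4 (3.70-fold). In all, 11 of the 12 were higher by some amount. The exception was Cngb1, another subunit of the channel, at 1.38-fold lower. Against the pool labelled Control_WT, Cngb1 was 2.48-fold lower in the pool labelled ECRS_KO. Of 8 measured regulators of receptor gene choice and expression 5 were at least 2-fold higher, among them Atf5, a transcription factor of the receptor feedback signal, at 2.92-fold and the Olf1/EBF factors Ebf2 and Ebf3 at 2.68-fold and 2.52-fold. Of 8 measured markers of immature neurons and progenitors 5 were at least 2-fold higher, with the growth-associated protein gene Gap43 at 3.18-fold. Against the pool labelled Control_WT, the pool labelled ECRS_WT had 3 of 13 mature neuron markers at least 2-fold higher (Stoml3 at 2.59-fold, and Rtp1 and Rtp2, which were not detected in the pool labelled Control_WT). It had 1 of 11 cascade genes, 0 of 8 regulators and 0 of 8 immature neuron markers at least 2-fold higher, and 1 of the last lower.

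Markers of some other cell types also differed by 2-fold or more between the ECRS-labelled pools, while those of others did not. The summed signal of the 16 mature neuron markers was 89844 in the pool labelled ECRS_KO, 32902 in the pool labelled ECRS_WT and 26771 in the pool labelled Control_WT. This sum and those below are of signals before normalization, on arrays whose mean signals were 465, 373 and 295 in that order. The sums include undetected probes, such as Nqo1 among the neuron markers and Thy1 among the T cell markers. Sustentacular cell and Bowman's gland markers, which mark the supporting cells of the olfactory epithelium, had 0 of 7 at least 2-fold higher and 0 lower between the ECRS-labelled pools (median 0.21), and their 8 signals summed to 60994 in the pool labelled ECRS_KO, 43216 in the pool labelled ECRS_WT and 25945 in the pool labelled Control_WT. Of 8 measured bone and cartilage markers 4 were at least 2-fold higher in the pool labelled ECRS_KO (median 0.98), with Col2a1, the collagen of cartilage, at 3.93-fold; the 8 signals summed to 15833, 5695 and 4430 in the pools labelled ECRS_KO, ECRS_WT and Control_WT. Of 4 measured T cell markers 4 were at least 2-fold lower, Cd3d by 4.41-fold, and of 6 macrophage markers 4, C1qb by 3.41-fold; the 7 T cell marker signals summed to 930 in the pool labelled ECRS_KO, 2399 in the pool labelled ECRS_WT and 1543 in the pool labelled Control_WT. All 6 measured ciliated cell markers lay within 2-fold (median -0.35), and of 3 measured vomeronasal markers 2 were at least 2-fold higher, Calb2 and Gnao1. The third, Gnai2, was 1.26-fold lower. Of the other vomeronasal markers listed, Vmn1r51 was not detected on any array and Trpc2 and Vmn2r1 had no probe. The part of tissue composition in the receptor signals was not tested.

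**Figure D4:**
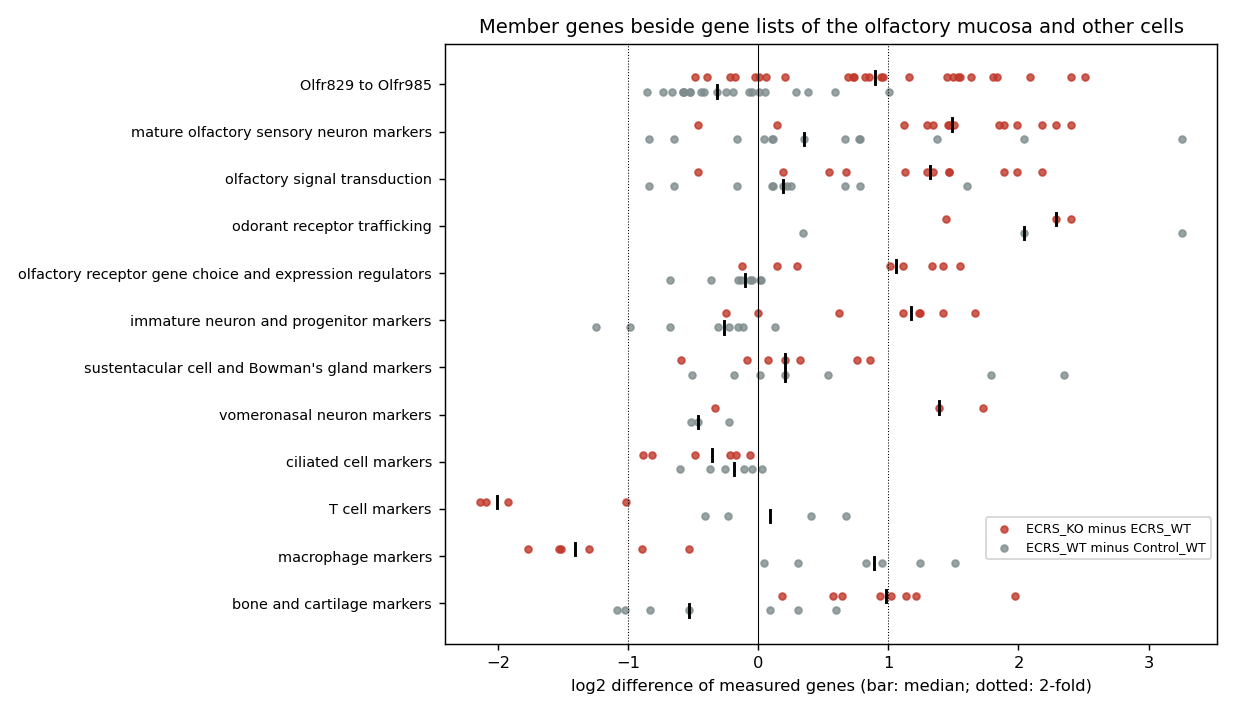
Log2 differences of measured genes (horizontal axis) for the chromosome 9 receptors and the gene lists named in the text, in red for ECRS_KO minus ECRS_WT and grey for ECRS_WT minus Control_WT, each point 1 gene and each bar a median. Some lists share genes. The red medians of the receptors and of the neuron lists lie between 0.90 and 2.29, while T cell and macrophage markers lie left of 0 in red.

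The size of the differences between the ECRS-labelled pools depended on how background was removed. The deposited values alone, without background correction and scaled to a common median, put 15 genes at least 2-fold higher in the pool labelled ECRS_KO, and median scaling after background correction put 14 there, the 11 among them in each case. An offset of 50 in place of 16 left 7, as did the saddle-point fit and the higher floor. With limma's own inference of the negative controls 1 remained, Olfr969 at a log2 difference of 1.11, and with the authors' normalized values 3. In the background, scaling, offset and authors' alternatives, the saddle-point fit, the mean of probes and the controls read from stepped p-values, all 11 kept a positive difference. These alternatives reprocess the same arrays on which the 11 were chosen as higher, so the kept sign is not independent support.

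**Figure D5:**
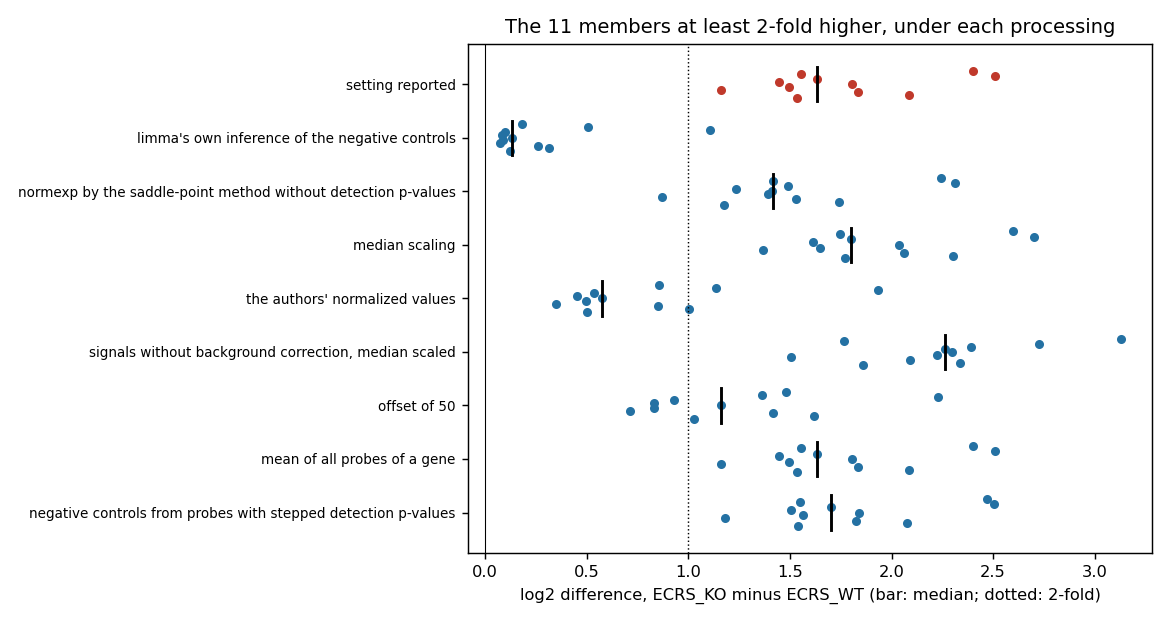
Log2 difference of ECRS_KO minus ECRS_WT (horizontal axis) for the 11 genes at least 2-fold higher, under the processing reported (red) and 8 alternatives (blue), with bars at the medians and a dotted line at 2-fold. Differences are of the measured values, not of the bounds by which genes were counted. Every point is above 0, and under limma's own inference the lowest is at 0.07.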

How the data were processed

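RNA of 3 groups, each a pool of 5 mice, was measured on 1 Illumina bead array per group; the labels gave the groups. Per the file headers, the authors' table before normalization gives, for 35226 probes, the signal intensity with its detection p-value. Values below 0 show that background had been subtracted by the authors. The submitters' processing notes name BeadStudio; the sources used here give no version, genome build or annotation. A second deposited table holds the authors' normalized intensity.

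Probes were named from GEO's platform annotation: 20571 had 1 symbol, 10 several and 14645 none. The probe with the highest mean signal stood for a gene. Entrez identifiers of all 100 members matched the RefSeq table (GRCm38.p6), used for names, order, families and sequences. Signals were background corrected by normexp with offset 16 and quantile normalized together in limma 3.58.1 (R 4.3.3), then log2 transformed. For normexp, the negative controls' mean and SD were read from medians of the signal over 100 bins of detection p-values (SDs 16.9, 13.7 and 9.23 for ECRS_KO, ECRS_WT and Control_WT), in place of limma's own inference, which gave SDs of 361, 356 and 260. This setting was chosen with the knowledge that it calls more genes than limma's own. About 82.9%, 82.6% and 81.6% of detection p-values on these arrays were whole multiples of 1 over 1536, 1542 and 1528, as a count of negative controls gives; those of 97 members were so on all arrays, and the other 3 were not detected.

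A gene was called at 2-fold or more when detected on the brighter array. For a gene undetected on the dimmer array, the greater of its value and the lowest detected level was used (5.00, 5.06 and 5.19 on the log2 scale for ECRS_KO, ECRS_WT and Control_WT), for calls. Bounds printed for receptors use the dimmest detected receptor of the array instead (5.60, 5.67 and 5.83). The offset shrinks folds of dim genes. Named genes were fixed by rule: the 8 highest and 4 lowest differences (4 and 4 in the other comparisons), the 3 largest bounds each way, the 8 highest mean signals and 3 genes of each of 11 lists. The members and lists were chosen with earlier results of these data known. Besides 11 alternative settings, 2 were chosen after seeing the data. The procedure was tested on simulated data. Known folds were placed only in probes detected on all 3 arrays at a signal over 100 in the pool labelled ECRS_WT. In that pool 2 of the 100 receptors had such a signal, so the test did not cover dim receptors or bounds. Python 3.11.15, numpy 2.4.6, pandas 2.3.3, scipy 1.17.1 and matplotlib 3.10.9 were used. No protein or probe sequences were used.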

Additional observations from a re-analysis of the deposited data

How the results depend on the processing

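No paired analysis was possible because each group has 1 array. For ECRS_KO minus ECRS_WT, the 11 genes at least 2-fold higher became 1 under limma's own inference of the negative controls, 3 with the authors' normalized values, 3 among members detected on all 3 arrays, and 7 each with the saddle-point fit, an offset of 50 and the floor at the dimmest detected receptor, which was chosen after seeing the data; for ECRS_KO minus Control_WT these counts were 1, 3, 3, 7, 7 and 7 in place of 11. The median difference of measured genes was 0.066 (ECRS_KO minus ECRS_WT) and 0.035 (ECRS_KO minus Control_WT) under limma's own inference, 0.053 and 0.027 over all 100 genes with no detection filter, and 0.34 (ECRS_KO minus ECRS_WT) with the authors' values; the cause was not tested, other than that no filter admits undetected genes. The gene at least 2-fold lower in ECRS_KO minus Control_WT was lost (0) under limma's own inference, median scaling, signals without background correction, the saddle-point fit, an offset of 50, the higher floor, the authors' values and detection on all 3 arrays. In ECRS_WT minus Control_WT 1 gene reached 2-fold at a detection p-value under 0.05 and with no detection filter, against 0. The medians of that comparison stayed at or below 0 under all 13 alternatives. The other 99 values of counts and medians moved by less than 1.5 times or by less than the spread between probes of the same gene (SD 0.29, 0.50 and 0.58 on the log2 scale for ECRS_KO minus ECRS_WT, ECRS_WT minus Control_WT and ECRS_KO minus Control_WT), and no called gene reversed. That spread comes from other genes, since each receptor has 1 probe, and is not the error of a median over receptors. The 99 include the ECRS_KO minus Control_WT median, 0.66 and 0.20 with the authors' values. They also include the ECRS_WT minus Control_WT median, -0.32 and -0.004 with no detection filter. Over all genes in ECRS_KO minus ECRS_WT, 421 higher and 210 lower calls became 144 and 81 under limma's own inference, 188 and 83 with the authors' values and 284 and 121 at an offset of 50. Under limma's own inference 330 and 123 became 108 and 41 in ECRS_WT minus Control_WT, and 628 and 514 became 213 and 148 in ECRS_KO minus Control_WT. Over all genes, median scaling moved the share of calls that were higher to 81.7% of calls from 66.7% (ECRS_KO minus ECRS_WT), to 92.3% from 72.8% (ECRS_WT minus Control_WT) and to 90.8% from 55.0% (ECRS_KO minus Control_WT), and the median of all measured genes in these comparisons to 0.14, 0.10 and 0.26. Signals near the negative controls limit every value of the dim receptors.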
